A study of Mus musculus with 20 samples.

Results

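The Bcl2 family was examined through 10 genes, taken by mouse symbol, in tumor cells sorted from bone lesions of MycCaP-Bo prostate cancer. They were 3 survival members (Bcl2, Bcl2l1 and Mcl1), 2 pore-forming members (Bax and Bak1) and 5 BH3-only members (Bcl2l11, Bbc3, Pmaip1, Bid and Bad). All 10 were among the 13850 genes listed in each of the 3 deposited expression tables. After 18 d of enzalutamide, Bcl2 was 1.97-fold higher in FPKM and was the only one of the 10 called changed. Pmaip1 was lower and Bid higher by less than 1.5-fold, and the other 7 members did not pass the test.

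Proteins of this family set whether a cell undergoes apoptosis through its mitochondria. The survival proteins sit at the outer mitochondrial membrane and hold Bax and Bak in check, and the BH3-only proteins report stress by binding the survival proteins or by activating Bax and Bak, which then open the membrane and release cytochrome c. Loss of androgen signaling is known to drive apoptosis in prostate epithelium, and BCL2 has long been studied in castration-resistant prostate cancer.

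MycCaP-Bo is a mouse prostate cancer line from a Myc-driven HiMyc tumor, selected in vivo for growth in bone and labeled with luciferase and the fluorescent protein iRFP. It was injected into the heart of FVB mice 4 to 6 weeks old, and CD45- iRFP+ cells were sorted from bone lesions, with cells of 3 mice pooled in each library and 5 libraries in each of 4 groups. The labels give this 1 cell line for all groups. Naive tumors had received vehicle, and Resist tumors had received enzalutamide, an anti-androgen, at 30 mg/kg daily for 18 d. Resist-Mac tumors had received the same enzalutamide with clodronate liposomes, which kill phagocytes, over the last 4 d. Naive-Mac tumors had received vehicle with clodronate liposomes over 4 d. The study's methods give the liposomes as 1 mg per mouse, injected 2 times a week. Naive and Resist libraries were batch 1 and shared a table, Resist-Mac libraries were batch 2 and Naive-Mac libraries batch 3, each with a table of its own. No test was run across tables, and between tables batch and treatment cannot be told apart.

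Expression was given as FPKM, read fragments scaled to transcript length and library size, so that levels of different genes can be set side by side per length. Read counts are not in these tables. Low values that looked like single reads put the depths of naive and Resist libraries at 0.929 to 1.08 of their mean, over 418 genes. Among markers of prostate tumor cells, Krt8 averaged 107 to 317 FPKM over the 4 groups, while the epithelial genes Krt18 and Cdh1 were under 1 FPKM in all 4. The mouse Myc gene averaged 162, 169 and 139 FPKM in naive, Resist and Resist-Mac libraries. It averaged 7.89 FPKM in Naive-Mac libraries, where its highest value was 10.1 FPKM, so these libraries stood apart from the others. Whether its level includes reads of the Myc oncogene of the HiMyc tumor is not given in the sources used here. The reason for the low Myc level was not tested, and every comparison with Naive-Mac libraries carries this difference. The summed FPKM of 7 neutrophil markers ran from 170 to 1224 in naive, 59.8 to 578 in Resist, 390 to 8466 in Resist-Mac and 58.6 to 6015 in Naive-Mac libraries, although CD45+ cells had been gated out. Macrophage markers summed to 3.51 to 96.6 FPKM over naive and Resist libraries, most of it Lyz2, with Adgre1, Csf1r and C1qa under 1 FPKM in both groups. They summed to 35.3 to 801 FPKM in Resist-Mac and 4.53 to 519 FPKM in Naive-Mac libraries. The sums thus reached higher in libraries from macrophage-depleted lesions, and the reason was not tested. In Resist-Mac and Naive-Mac libraries Lyz2 averaged 304 and 223 FPKM, Csf1r 1.13 and 0.318 FPKM, and Adgre1 0.274 and 0.154 FPKM. The hemoglobin gene Hba-a1 rose from 88.9 FPKM in naive to 153 FPKM in Resist libraries. The erythroid gene Alas2 was under 1 FPKM in naive and Resist libraries.

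The order of levels was set first by the gene. In naive libraries Pmaip1 (132 ± 14.7 FPKM, SD, n = 5), Mcl1 (120 ± 14.7 FPKM) and Bax (108 ± 5.75 FPKM) came first, and their ranges overlapped in turn. Bcl2l1 at 49.5 ± 7.82 FPKM, Bak1 at 26.7 ± 1.05 FPKM, Bad at 22.0 ± 2.33 FPKM and Bcl2l11 at 12.01 ± 0.947 FPKM followed, each separate from its neighbors in the order. Bid at 9.18 ± 0.708 FPKM and Bbc3 at 6.98 ± 1.01 FPKM overlapped, and Bcl2 at 2.19 ± 0.508 FPKM was lowest, below the range of Bbc3. Mcl1 transcript was therefore the most abundant survival transcript and Bcl2 the least. In Resist libraries Bcl2 was still last, at 4.31 ± 0.668 FPKM, but its range then overlapped that of Bbc3, at 6.18 ± 0.949 FPKM.

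**Figure D1:**
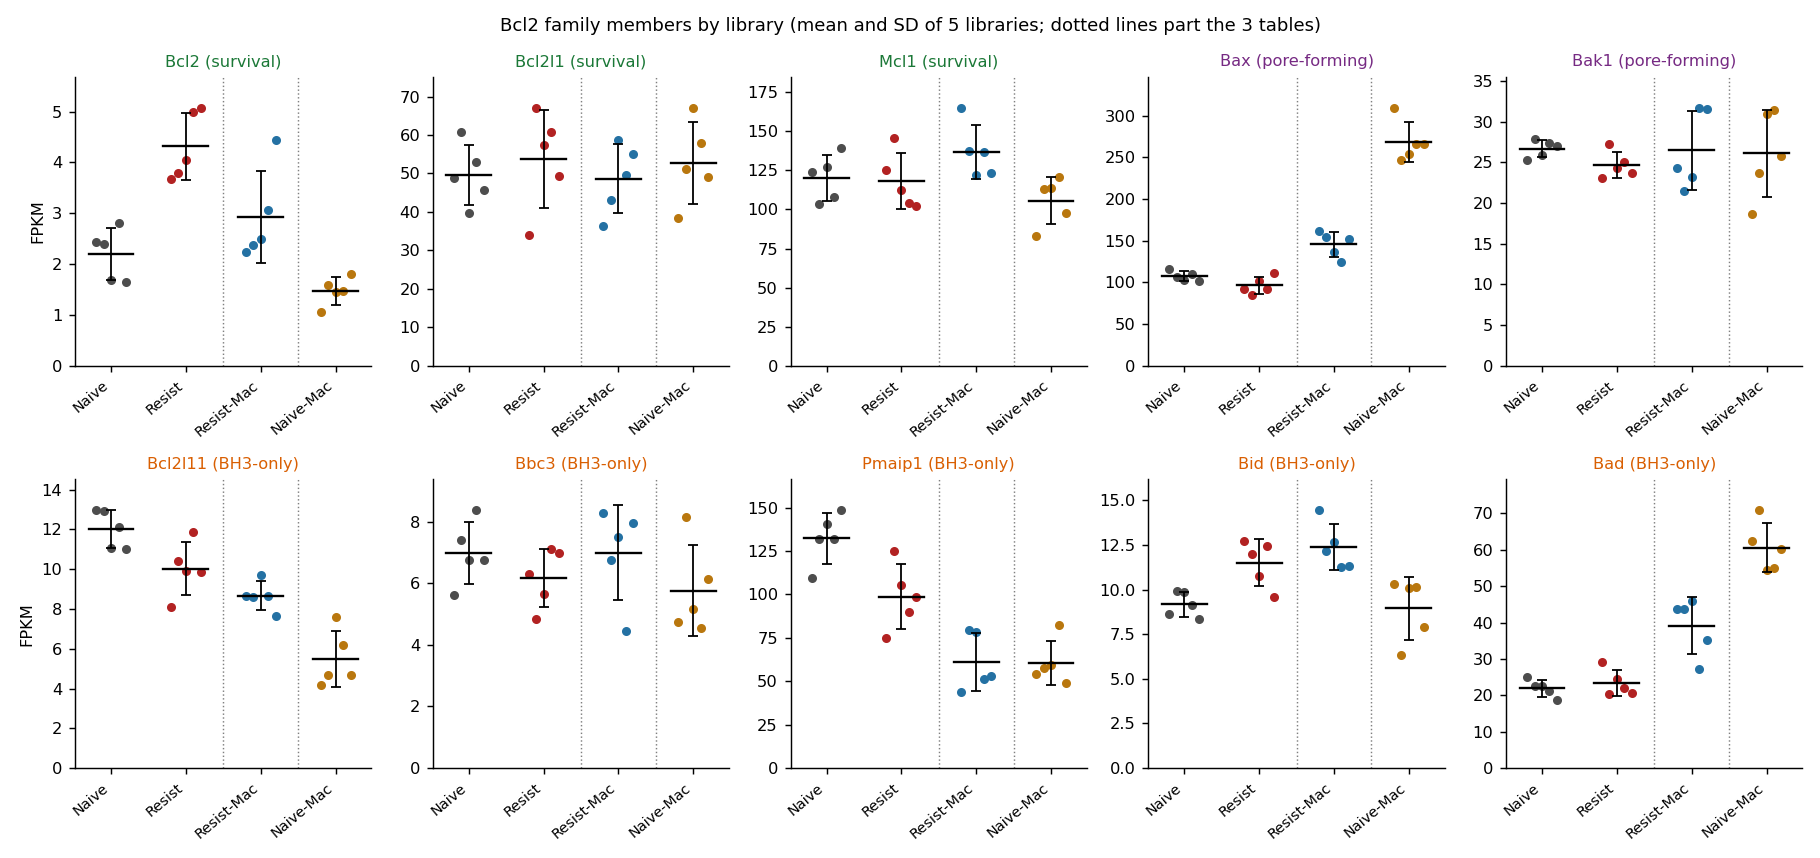
FPKM of the 10 members (vertical axes from 0) in each of 5 libraries of naive, Resist, Resist-Mac and Naive-Mac tumors, with the mean and SD. Dotted lines part the 3 tables, which were normalized separately, and the 5 Resist libraries sit above all naive libraries for Bcl2, at 3.67 to 5.07 against 1.64 to 2.80 FPKM.

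Resist and naive tumors were compared to ask which members differed once the lesions had become resistant to enzalutamide. The test was limma on log2(FPKM + 1) over 10119 genes, a gene passed it when its p, adjusted after Benjamini and Hochberg, was under 0.05, and it was called when its fitted fold change was also over 1.5. Of the 10 members, 1 was called, and it was higher in Resist, where 6.35% of all genes were called, 5.25% higher and 1.11% lower. Among them, 2 passed the test upward and 1 downward, against 12.5% and 6.4% of all genes, so the share of members that passed was near that of all genes.

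Bcl2, the founding survival gene of the family (Entrez 12043), was the member with the smallest p. Its FPKM in the 5 naive libraries was 2.44, 2.40, 1.69, 2.80 and 1.64, and in the 5 Resist libraries 3.67, 3.80, 4.04, 4.99 and 5.07. Every Resist library was above every naive library, as was the case in either direction for 12.8% of genes. The log2 change was 0.74 ± 0.13 (SE), with an adjusted p of 0.00286 by limma, and the difference in mean FPKM had an exact two-sided permutation p of 0.00794, the smallest that 5 against 5 libraries can give. By p, Bcl2 stood at rank 311 of the 10119 genes. Under quantile normalization its log2 change fell to 0.57, still past the test with an adjusted p of 0.0133 but under the 1.5-fold limit. By a noise-distribution probability computed here after NOISeq, Bcl2 was not called. The study ran NOISeq itself and reported more changed genes, so this outcome need not hold for its run. Without any 1 library, the log2 change of Bcl2 lay between 0.68 and 0.81 with adjusted p up to 0.00842.

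Markers of cells that could bring in Bcl2 transcript were read beside this result. The 4 B cell markers in the table summed to 0.07 to 1.16 FPKM in naive and 0.12 to 1.94 FPKM in Resist libraries. Markers of osteoblasts and stromal cells summed to 3.36 to 7.24 FPKM and 1.28 to 23.8 FPKM, and endothelial markers to 0.36 to 1.52 FPKM and 0.17 to 2.94 FPKM. By library, the stromal sums of Resist replicates 1 to 5 were 6.87, 1.28, 14.4, 10.9 and 23.8 FPKM, beside Bcl2 at 3.67, 3.80, 4.04, 4.99 and 5.07 FPKM. Replicates 1 and 2 were lowest and replicate 5 highest in both, while replicates 3 and 4 were in opposite order, and the part of stromal RNA in the Bcl2 result was not tested. Resist replicate 2 had the lowest sums of stromal, endothelial, macrophage and B cell markers of the 5 Resist libraries, at 1.28, 0.17, 3.51 and 0.12 FPKM, and its Bcl2 level of 3.80 FPKM was above every naive library. Its sum of erythroid markers, 165 FPKM, was not the lowest in Resist and was above the highest naive sum of 106 FPKM. In sorted bulk cells, fewer cells with a transcript and less of it per cell cannot be told apart.

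The gene for Bcl2 lies at chr1:106538176-106714290 on the minus strand (GRCm38, GENCODE M21), and its exons overlap those of D630008O14Rik on the other strand by 558 bases. Whether the counting used strand is not given in the sources used here. Its longest transcript, 7191 bases, was the longest among the 10. The 250 bases before the RefSeq start, at chr1:106714291-106714540, hold 36 CpG and 74.8% GC, against medians of 6 and 52.4% over the 32851 RefSeq promoter windows of the same length. They are shown with a window of Bid, the other member that passed the test upward, at chr6:120916825-120917074, which holds 18 CpG. The Bid gene is annotated at chr6:120893119-120917062, so most of its window lies inside the gene. The Bcl2 window lies wholly outside its gene. Both genes are on the minus strand, the build is GRCm38.p6, and capitals mark GC boxes on either strand (GGGCGG or CCGCCC).

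Bcl2 promoter: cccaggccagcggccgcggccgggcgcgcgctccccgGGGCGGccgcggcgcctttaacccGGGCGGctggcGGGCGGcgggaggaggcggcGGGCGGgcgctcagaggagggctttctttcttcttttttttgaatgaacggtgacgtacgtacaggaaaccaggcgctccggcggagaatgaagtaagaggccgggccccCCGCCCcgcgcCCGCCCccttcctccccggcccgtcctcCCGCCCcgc
Bid promoter: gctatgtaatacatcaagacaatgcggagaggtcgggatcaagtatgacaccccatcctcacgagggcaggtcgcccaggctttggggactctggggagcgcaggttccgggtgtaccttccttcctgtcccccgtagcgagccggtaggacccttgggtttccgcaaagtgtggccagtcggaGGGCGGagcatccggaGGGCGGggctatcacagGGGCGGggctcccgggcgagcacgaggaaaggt

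The Bcl2 window holds 7 GC boxes and the Bid window 3, and 32.7% of all windows hold at least 1. Neither holds the letters TATAAA, present on either strand in 12.4% of windows.

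The other survival members did not pass the test. Bcl2l1, which encodes Bcl-xL, was at 48.8, 60.7, 39.8, 52.9 and 45.6 FPKM in naive libraries and at 34.1, 67.0, 57.5, 60.9 and 49.3 FPKM in Resist libraries. The Resist range thus enclosed the naive range at both ends, and the log2 change was 0.09 ± 0.16 (adjusted p = 0.722 by limma). Mcl1, a short-lived survival protein, was at 124, 103, 127, 108 and 139 FPKM in naive and at 125, 146, 113, 104 and 102 FPKM in Resist libraries. Its groups overlapped almost fully, with a log2 change of -0.03 ± 0.11 (adjusted p = 0.862), and its direction turned in 3 of the fits that left out 1 library and under quantile normalization. With standard errors of 0.11 to 0.16, a change of the size seen for Bcl2 would have stood well outside the error of either gene.

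**Figure D2:**
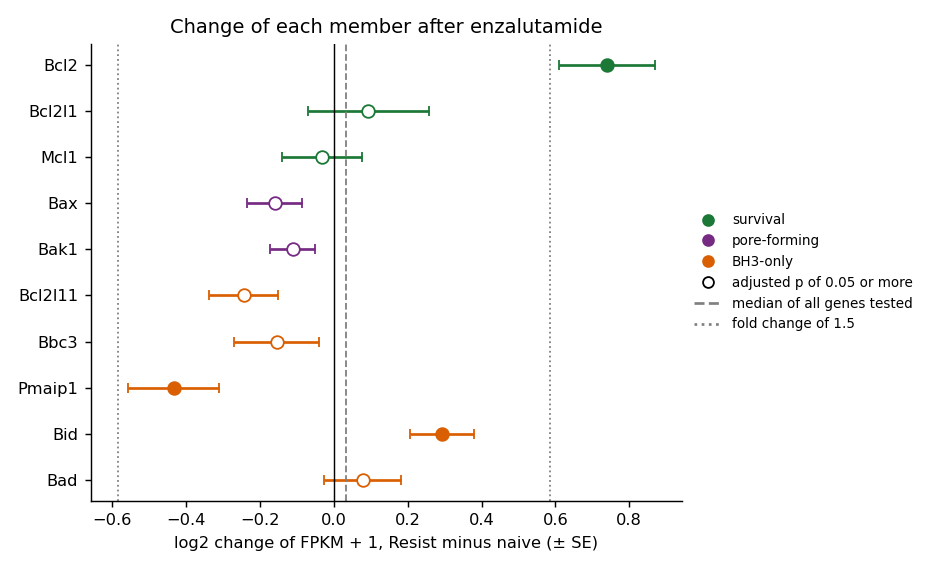
Log2 change of FPKM + 1 from naive to Resist (horizontal axis, ± SE, 5 libraries per group) of each member, colored by class, with filled points where the adjusted p was under 0.05. Bcl2 at 0.74 is the only member beyond the dotted 1.5-fold lines, and Pmaip1 at -0.43 and Bid at 0.29 are the other filled points.

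Both pore-forming members had slightly lower means in Resist tumors. Bax ran from 102 to 116 FPKM in naive libraries, with a median of 106.5, and was 92.5, 85.0, 102, 92.1 and 111 FPKM in Resist libraries. Of these 5, 4 were below the lowest naive library, the log2 change was -0.16 ± 0.07 and the adjusted p was 0.147. Without Resist replicate 5 the log2 change of Bax was -0.21 with an adjusted p of 0.0327. Bak1 was 25.3 to 27.8 FPKM in naive and 23.1 to 27.2 FPKM in Resist libraries. Its log2 change was -0.11 ± 0.06 with an adjusted p of 0.220 by limma, while the exact permutation test on mean FPKM gave 0.0476 unadjusted for the 10 members. Corrected for length and GC content, Bak1 passed the test, with a log2 change of -0.22 and an adjusted p of 0.0493 by limma.

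The BH3-only members did not move together. Pmaip1, which encodes Noxa, a partner of Mcl1, was at 109, 132, 140, 132 and 148 FPKM in naive libraries and at 74.7, 125, 106, 89.6 and 98.2 FPKM in Resist libraries. Of the 5 Resist libraries, 4 were below every naive library and replicate 2 was within the naive range. Pmaip1 fell by 0.43 ± 0.12 on the log2 scale (adjusted p = 0.0300 by limma, 0.746-fold in mean FPKM, exact permutation p = 0.0159). The result was close to the threshold, since the adjusted p was 0.0536 to 0.0687 without naive replicate 2, 3, 4 or 5 or without Resist replicate 1 or 4.

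Bid, which links death receptors to mitochondria once caspase-8 has cut it, was at 8.61, 9.90, 9.89, 9.14 and 8.37 FPKM in naive libraries and at 12.74, 11.97, 10.79, 12.44 and 9.57 FPKM in Resist libraries. Here 4 of 5 Resist libraries were above every naive library, and replicate 5 was within their range. Bid rose by 0.29 ± 0.09 on the log2 scale (adjusted p = 0.0360 by limma, 1.25-fold in mean FPKM, exact permutation p = 0.0238). Its adjusted p was 0.0533 to 0.0844 without naive replicate 1, 4 or 5 or without Resist replicate 1, 2, 3 or 4, and Bid passed the test in 6 of the 18 alternatives that gave an adjusted p, against 10 of 18 for Pmaip1. Exons of Bid overlap those of Bcl2l13, itself a family member, on the other strand by 628 bases, and Bcl2l13 had a log2 change of -0.19 ± 0.07 in the same comparison. Exons of Bak1 and Bad likewise overlap those of Ggnbp1 and Gpr137 on the other strand, by 614 and 524 bases.

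The 3 remaining BH3-only members did not pass. Bcl2l11, which encodes Bim, was 11.02 to 12.96 FPKM in naive libraries and 8.12, 10.4, 9.90, 11.9 and 9.85 FPKM in Resist libraries, so that all but replicate 4 were below the naive range. Its log2 change was -0.24 ± 0.09 with an adjusted p of 0.0854 by limma, and 0.0440 without Resist replicate 4. Bbc3, which encodes the p53 target Puma, was 5.61 to 8.37 FPKM in naive and 4.83 to 7.10 FPKM in Resist libraries (log2 change -0.15 ± 0.12, adjusted p = 0.364). Bad, a BH3-only protein held inactive by phosphorylation, was 18.7 to 25.1 FPKM and 20.3 to 29.2 FPKM (log2 change 0.08 ± 0.10, adjusted p = 0.630).

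By class, the median log2 change was 0.09 for the 3 survival members and -0.15 for the 7 pore-forming and BH3-only members, beside 0.03 for all genes tested. Of those 7, 5 had a change below 0. A balance was computed in each library as the mean log2(FPKM + 1) of the survival members minus that of the other 7. It was 0.0043 ± 0.089 in naive libraries, between -0.14 and 0.10, and 0.38 ± 0.13 in Resist libraries, between 0.19 and 0.55. Every Resist library was thus above every naive library on this scale. Without Bcl2 the balance was 1.54 ± 0.09 and 1.68 ± 0.21, the difference dropped from 0.37 to 0.14, and the ranges overlapped, so most of the shift lay in Bcl2, the survival transcript with the lowest level. Across the other tables, it was 0.15 ± 0.19 in Resist-Mac libraries, with 3 libraries between -0.01 and 0.04 and the other two at 0.38 and 0.34 (replicates 4 and 5), and -0.18 ± 0.14 in Naive-Mac libraries, between -0.43 and -0.10. The labels put all 5 Resist-Mac libraries in 1 batch, but the column headers of replicates 4 and 5 share a prefix, those of replicates 2 and 3 share another, and that of replicate 1 has neither. What the prefixes mark is not given in the sources used here. No test was run on the balance, whose members were chosen with results of these data known.

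Sums of FPKM, which weight abundant transcripts, gave another view. The survival members summed to 172 ± 9.11 FPKM in naive and 176 ± 23.5 FPKM in Resist libraries, with overlapping ranges. The other 7 summed to 317 ± 7.80 and 271 ± 16.8 FPKM, between 303 and 322 in naive and between 247 and 285 in Resist libraries, without overlap. Most of that lower sum lay in Pmaip1 and Bax, the most abundant of the 7. The ratio of Bcl2 to Bcl2l11 was 0.181 ± 0.0333 in naive and 0.432 ± 0.0559 in Resist libraries, without overlap. That of Mcl1 to Pmaip1 was 0.917 ± 0.139 and 1.22 ± 0.259, with overlapping ranges of 0.784 to 1.14 and 1.04 to 1.68. Only these pairs are given, and each sets a survival member against a BH3-only member with a lower mean in Resist, unlike Bid and Bad.

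**Figure D3:**
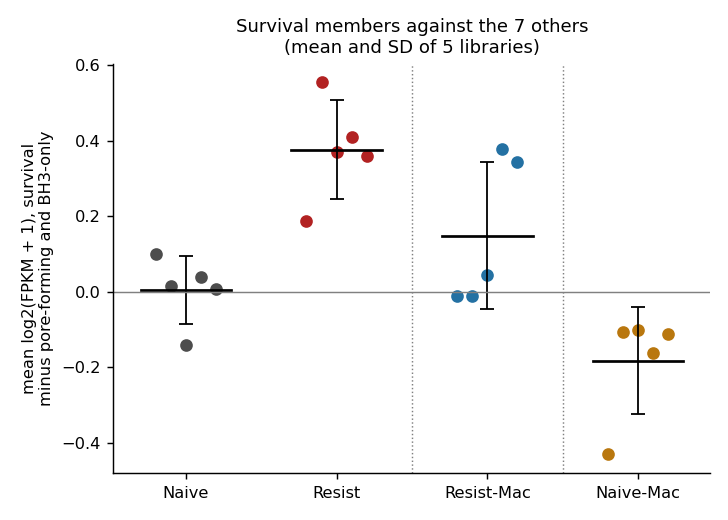
Balance of each library, the mean log2(FPKM + 1) of Bcl2, Bcl2l1 and Mcl1 minus that of the 7 other members (vertical axis), in the 4 groups with the mean and SD of 5 libraries. Resist libraries lie at 0.19 to 0.55, above all naive libraries, and dotted lines part tables that were normalized separately. Values are not corrected for transcript length, by which the tables differed.

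The genes around the family were taken as 60 genes in 7 lists, of which 48 were tested in Resist vs. Naive. Of the 48, 6 rose, 5 fell and 37 did not pass the test. The 12.5% that rose is the share of all genes that did, and 10.4% fell, against 6.4% of all genes. The 4 genes called were Bmf, Tnfsf10 and Fbxw7, higher, and Cycs, lower. Tnfsf10 averaged 0.986 FPKM in naive libraries and passed the filter on low values only through its Resist level. It is counted among the 6 and the 4, and without it the share that rose is under 12.5%.

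Among 13 other Bcl2 family genes, 5 were tested and Bmf alone passed. Bmf, a BH3-only gene tied to loss of attachment, rose by 0.66 ± 0.19 on the log2 scale, from 3.17 ± 0.700 to 5.78 ± 2.31 FPKM (adjusted p = 0.0337), with overlapping groups. Bcl2l2, the survival gene for Bcl-w, was at 9.32 ± 1.19 and 11.4 ± 1.35 FPKM and did not pass (adjusted p = 0.0850). Of the list's other genes in the table, Bcl2a1a, Bcl2a1b, Bcl2l10, Bik, Bcl2l14 and Bcl2l15 averaged under 1 FPKM in both groups.

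Downstream of the mitochondria, 1 of 9 tested genes of the apoptosome and caspase list passed. Cycs, the gene for cytochrome c, fell by 0.60 ± 0.11 on the log2 scale, from 11.8 ± 2.09 to 7.40 ± 0.727 FPKM without overlap (adjusted p = 0.00440). Mouse Cycs has processed pseudogenes that can share its reads, so its level is uncertain. Casp9, Apaf1 and the other 6 tested genes did not pass, with a median log2 change of 0.03 for the list. Among inhibitors of apoptosis and their antagonists, Diablo, whose protein is released with cytochrome c, fell by 0.22 ± 0.06 (adjusted p = 0.0306), and the other 5 tested, among them Htra2 at 24.4 ± 1.58 and 27.2 ± 3.86 FPKM and Birc5 at 22.2 ± 2.40 and 19.0 ± 3.84 FPKM in naive and Resist libraries, did not pass. The outer membrane channel genes Vdac1 and Vdac2 also fell, Vdac1 from 280 ± 13.8 to 230 ± 12.2 FPKM and Vdac2 from 88.3 ± 2.47 to 76.2 ± 5.42 FPKM (adjusted p = 0.00631 and 0.0283), both without overlap. In their list, Fbxw7, the substrate subunit of a ubiquitin ligase that marks Mcl1 and Myc proteins among others, rose by 0.92 ± 0.10, from 5.83 ± 0.599 FPKM to 2.06 times that level, without overlap (adjusted p = 0.000228), while Huwe1, Usp9x and Marchf5, which also act on Mcl1 protein stability, did not pass.

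In the death receptor list, 4 of 8 tested genes rose and none passed downward, where 12.5% of all genes rose. This list is 1 of 7, chosen with earlier results of these data known, and it was not tested as a set. Tnfsf10, the ligand TRAIL, rose from 0.986 ± 0.0918 to 2.74 ± 1.32 FPKM (adjusted p = 0.00967), but it averaged under 1 FPKM in naive libraries and passed the filter on low values only through its Resist level, so its call is given as a description. Leaving it aside, 3 of 7 tested genes rose. Tnfrsf1a, a TNF receptor, rose 1.38-fold to 25.01 ± 3.29 FPKM, Cflar, which blocks caspase-8, rose 1.42-fold to 3.86 ± 0.830 FPKM, and Ripk1, a kinase of the same receptor complex, rose 1.26-fold to 6.88 ± 0.740 FPKM (adjusted p of 0.00495, 0.0400 and 0.0358). Fas was at 0.284 ± 0.219 and 1.57 ± 1.15 FPKM and was under the filter. Of the p53 list, which holds regulators shared with Bbc3 and Pmaip1, only Cdkn1a passed among 9 tested, lower at 67.5 ± 10.6 against 82.4 ± 3.76 FPKM (adjusted p = 0.0493), and Trp53 was at 41.1 ± 2.55 against 42.2 ± 3.59 FPKM. Of the 5 regulators of BH3-only transcription, 0 passed by limma and 1, Foxo3, had an unadjusted p under 0.05. The highest of them were Atf4 at 125 ± 16.2 and 123 ± 10.7 FPKM and Foxo3, a regulator of Bcl2l11, at 35.6 ± 2.60 and 29.9 ± 4.86 FPKM.

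**Figure D4:**
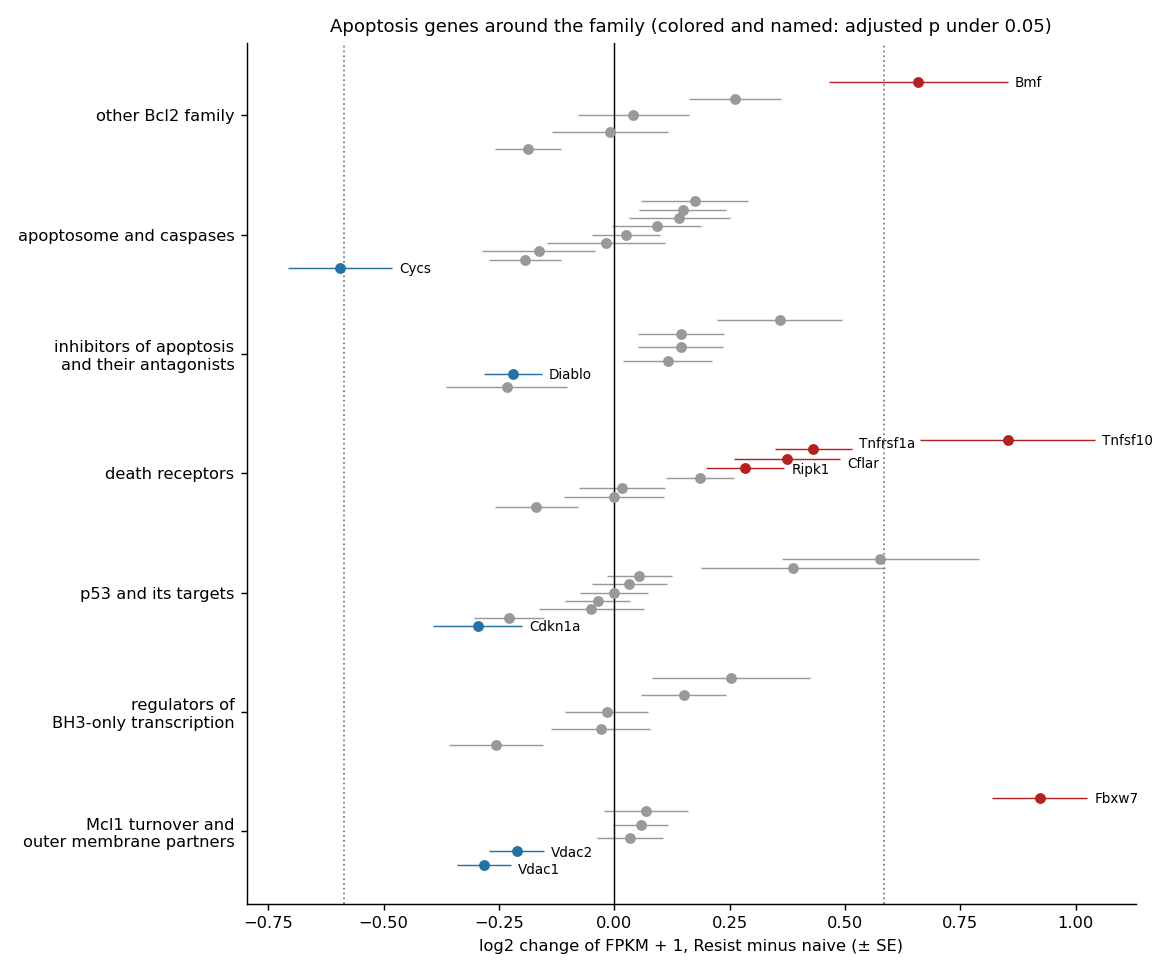
Log2 change of FPKM + 1 from naive to Resist (horizontal axis, ± SE, 5 libraries per group) of the 48 tested genes in 7 apoptosis lists. Red and blue named points passed the test upward (6 genes) and downward (5 genes), grey points did not, and dotted lines mark a fold change of 1.5. The 6 include Tnfsf10, which passed the filter on low values only through its Resist level.

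The genes whose profile over the 10 naive and Resist libraries was most like that of Bcl2 were found by the root mean square difference of centered log2(FPKM + 1). Net1 was nearest at 0.13, followed by Ikzf4 and Mtmr10 at 0.14, Tnfrsf21 at 0.16 and Il1r1 at 0.17. All 5 had higher mean FPKM in Resist than in naive libraries, which the choice by likeness to Bcl2 fixes.

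After macrophage depletion, levels were set across tables as a description. Resist-Mac and Resist tumors share enzalutamide, and Bcl2 was 2.24, 2.37, 2.49, 3.07 and 4.45 FPKM in Resist-Mac libraries, of which 4 were below every Resist library. The mean was 0.678-fold that of Resist, but the 2 tables differed by transcript length over all genes. The log2 difference had a median of 0.60 for transcripts under 1500 bases and -0.42 for those of 5000 bases or more, with Spearman's rho of -0.64 over 10027 genes. After a correction for length and GC content the log2 difference of Bcl2 went from -0.46 to -0.02. Bax, whose longest transcript has 1100 bases, went from 0.59 to 0.00 in the same way, although its 5 Resist-Mac values of 124 to 162 FPKM were above all Resist values. Bax was the 1 member of 10 whose groups did not overlap, against 29.7% of all genes.

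Pmaip1 and Bad kept their direction on each scale computed, as did Bcl2l1, Bcl2 and Bax. Bcl2 and Bax lay near 0 after the correction, and the mean percentile of Bcl2 was lower by 3.88 points. Bcl2l1 had log2 differences of -0.13 as deposited and -0.27 after the correction. Its mean percentile was lower by 2.68 points, and its groups overlapped. Pmaip1 was 44.0, 79.3, 78.5, 51.3 and 52.7 FPKM in Resist-Mac libraries, and 3 of these were below every Resist library. Its mean was 0.620-fold that of Resist, with a log2 difference of -0.70 as deposited and -0.97 after the correction, and its mean percentile among the genes of a library was lower by 6.07 points. Bad was 43.7, 43.8, 45.9, 27.3 and 35.2 FPKM, with 4 libraries above every Resist library, at 1.68-fold in mean and with log2 differences of 0.71 and 0.31. In the 2 Resist-Mac libraries (replicates 2 and 3, which share a header prefix) whose neutrophil marker sums did not exceed the 1224 FPKM of the highest naive library, Bcl2 averaged 2.43 FPKM, 0.563-fold that of Resist, Pmaip1 averaged 78.9 FPKM, 0.80-fold that of Resist, and Bad 44.9 FPKM, 1.92-fold. With only these 2 libraries, the groups did not overlap for 3 of 10 members, Bcl2 lower and Bax and Bad higher, against 55.1% of all genes. The part of neutrophil RNA in these differences was not tested.

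In naive tumors the same depletion went with 4 of 10 members without overlap, against 66.3% of all genes. Bax at 247 to 309 FPKM and Bad at 54.3 to 70.8 FPKM were above all naive libraries, and Bcl2l11 at 4.17 to 7.58 FPKM and Pmaip1 at 49.2 to 82.5 FPKM were below them. Corrected for length and GC content, the log2 difference of Bad was 0.96 and that of Pmaip1 -1.46, while Bcl2l11, with a transcript of 5036 bases, went from -1.03 to -0.07. Bcl2 in Naive-Mac libraries was 1.06, 1.58, 1.45, 1.46 and 1.80 FPKM, overlapping the naive range, and its log2 difference of -0.36 turned to 1.02 under the correction. The direction for Bcl2 in this comparison thus depended on the scale. With the 2 Naive-Mac libraries under the same limit of neutrophil markers, 5 of 10 members did not overlap, Bid being the added one, lower in Naive-Mac, against 79.7% of all genes.

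Between the 2 depleted groups, Resist-Mac and Naive-Mac tumors differed by enzalutamide, by batch and in the Myc level given above. Here 6 of 10 members did not overlap, 4 higher and 2 lower in Resist-Mac, against 47.8% of all genes. Bcl2 was 1.99-fold higher in mean FPKM, with all 5 Resist-Mac libraries above the Naive-Mac libraries, but its log2 difference of 0.65 was -0.40 after the correction. Bid at 11.3 to 14.4 FPKM was above the Naive-Mac range of 6.34 to 10.3 FPKM, but its log2 difference of 0.44 was 0.28 after the correction and 0.039 under median-ratio scaling, and its mean percentile within the library was lower in Resist-Mac, so its direction depended on the scale. Bax and Bad were lower in Resist-Mac on both scales, with corrected log2 differences of -0.86 and -0.64. With 2 libraries per group under the neutrophil limit, 8 of 10 members did not overlap, against 74.7% of all genes.

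**Figure D5:**
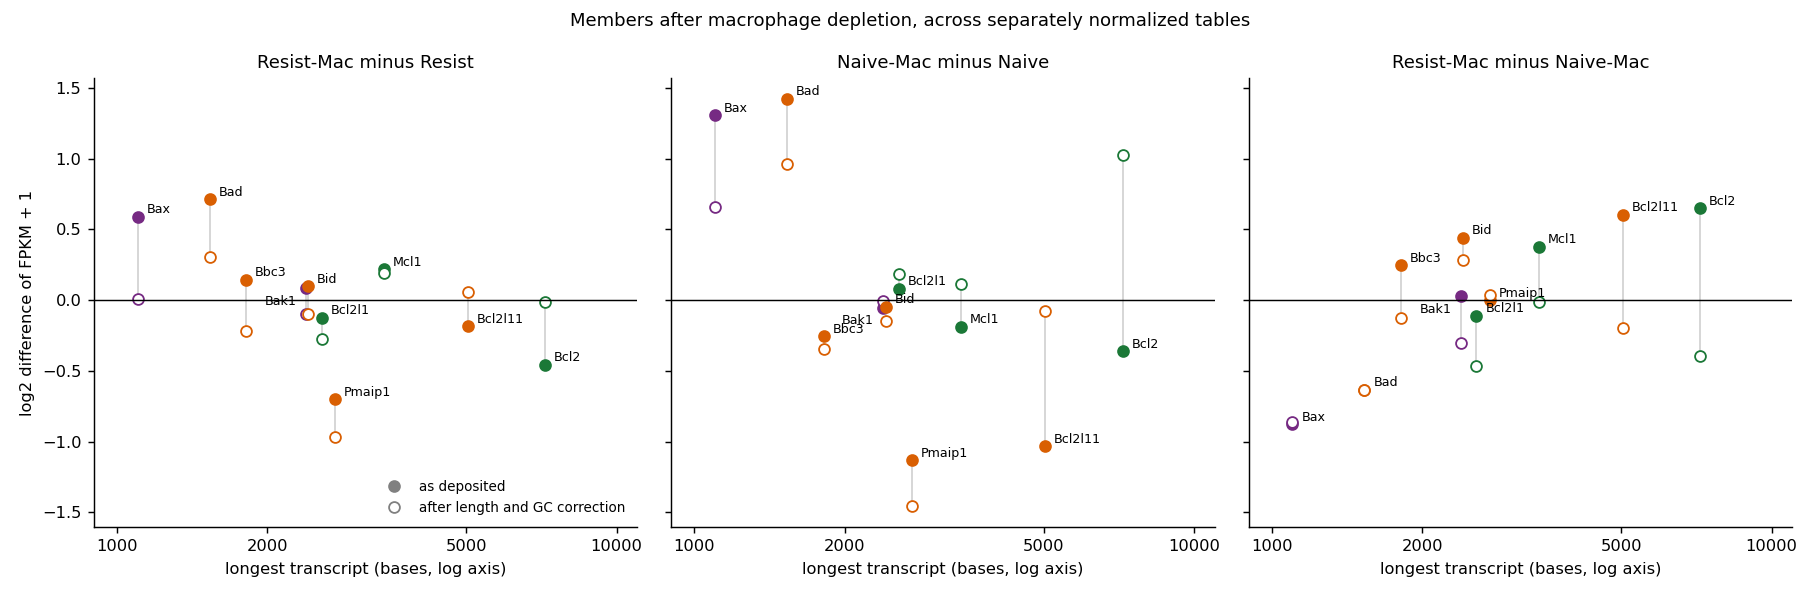
Log2 differences of FPKM + 1 for the 10 members in 3 comparisons across tables (vertical axis) against the length of the longest transcript (log axis), as deposited (filled) and after the length and GC correction (open), joined by grey lines and colored by class as in the plot of member changes. In Naive-Mac minus Naive, Bcl2, the longest transcript, goes from -0.36 to 1.02, while Pmaip1 stays below 0 and Bad and Bax above 0.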

How the data were processed

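RNA of sorted CD45- iRFP+ tumor cells, enriched with oligo-dT, was sequenced as paired ends on a BGISEQ-500. Per the labels, the submitters' processing notes name Bowtie2 and mm9. The quantification tool and annotation are not given in the sources used here. The authors deposited FPKM for Resist-Mac and Naive-Mac libraries and log2(FPKM + 1) for naive and Resist libraries, which was turned back to FPKM. The 752 BGI_novel genes, with 8.45% of the FPKM of that table, were removed, as in the study's methods. Read counts were not used here, so depth per library is unknown, and precision rests on the spread of 5 libraries.

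Genes averaging 1 FPKM or more over naive and Resist libraries were tested with limma 3.58.1 (R 4.3.3, trend in the prior variance) on log2(FPKM + 1), and members also by exact two-sided permutation tests of mean FPKM (scipy 1.17.1). All 10 members, the genes called in each pathway list (otherwise the 2 with the highest FPKM), and the 5 genes most like the member with the smallest p are named. Casp9, Apaf1, Diablo, Bcl2l2, Fas and others beyond this rule were named after their values were seen. Members and lists were chosen with earlier results of these data known. Replicate numbers did not pair libraries (correlations of same-numbered deviations -0.16 to -0.03). Alternatives were a pseudocount of 0.1, a filter of 5 FPKM or none, median-ratio scaling, quantile normalization, a fold over 2, no trend, the replicate block, a noise-distribution probability over 0.8 after NOISeq, a spline with 4 degrees of freedom on transcript length and GC content, and leaving out each library. Leaving out libraries rich in neutrophil markers, and leaving Bcl2 out of the balance, were added after seeing the data. The fits were tested on simulated data. Gene positions and lengths came from GENCODE M21, promoters from RefSeq. Promoter windows were read for 9 of 10 members, and that of Pmaip1 is not reported here, nor are the results of some listed genes. Other versions were Python 3.11.15, numpy 2.4.6, pandas 2.3.3, minimap2 2.31 and matplotlib 3.10.9.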

Additional observations from a re-analysis of the deposited data

Results flagged for a closer look

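The balance of survival members against the 7 other members was -0.43 in Naive-Mac replicate 1, while the other 4 Naive-Mac libraries lay between -0.16 and -0.10. The gap to its nearest neighbor was 0.81 of the range of the group, over the limit of 0.71 for 5 values. Among 44 groups of 5 libraries looked at for the members and the balance, 1 had such a value, where chance gives about 2.2.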

How the results depend on the processing

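The call of Bcl2 held in 16 of 20 alternatives. It was lost, leaving 0 members called, with a minimum of 5 FPKM, under which Bcl2 was not tested, under quantile normalization (log2 change 0.57), with a fold change over 2 and by the noise-distribution probability, and the cause of the last was not tested. Over all genes, 643 calls became 392, 219 and 360 with the minimum of 5 FPKM, the fold over 2 and the noise-distribution probability, and 527 to 840 without 1 library each, the highest without Resist replicate 5. The replicate number as a block gave 624 calls over all genes and 1 member, and an adjusted p of 0.0572 for Bid. No libraries of one number correlated best with each other. The difference in balance was 0.33 to 0.42 without 1 library each and 0.14 with Bcl2 left out.

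Directions turned for members that did not pass: Mcl1 had a log2 change of 0.020 under quantile normalization and of -0.11 to 0.022 without 1 library each, Bcl2l1 of -0.014 with the length and GC correction, and Bad of -0.0020 to 0.13 without 1 library each. Differences in mean FPKM without 1 library each ran from -9.21 to 2.37 for Mcl1 and from -0.072 to 2.15 for Bad. Bcl2l11 passed the test under median-ratio scaling, quantile normalization and the length and GC correction (adjusted p of 0.0321, 0.0229 and 0.0155), and Bak1 under the last of these (0.0493). Depth is unknown, so a level near 0 cannot be told from one that was not sampled.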
